A study of Drosophila melanogaster with 6 samples.

Results

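The Flag-Dwg ChIP called against input chromatin is a list of 12971 summits, the 1 bp positions at which MACS2 placed the top of each enriched region in chromatin pulled down through the Flag tag. All summits of the list were taken, and they were divided into 3458 summits with no summit of the companion list, the same ChIP called against an IgG control, on the same chromosome within 100 bp (input-only summits) and 9513 summits that had one (shared summits). The companion list held 10950 summits, and both lists together 23921. The samples were S2R+ cells, an embryo-derived Drosophila line with blood cell character, that expressed Flag-tagged Dwg, and 2 libraries each were made for the Flag-Dwg ChIP, for input chromatin and for the IgG control. Every group therefore carried the tagged protein in addition to the cells' own Dwg, and no cells without the tag entered either list. In their antibody field both input libraries are marked dwg1, which goes against titles that call them input. The grouping follows the titles. The deposited values are 1 score per summit, the −log10 of the MACS2 q-value, without separate values for the libraries. Sequencing depth and replicate error are therefore unknown here. A list of binding positions holds no expression, so the labelled cell line could not be set against its markers.

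Dwg (Deformed wings, also Zw5) is a zinc finger protein that binds insulators, DNA elements that keep enhancers from acting on the wrong promoter and that often mark the borders of chromatin domains. In Drosophila many insulator proteins, among them BEAF-32, Chromator and M1BP, sit close to the starts of actively used genes, often between a pair of genes that are transcribed away from each other. Input chromatin records how easily each stretch of the genome is cut and sequenced, whereas an IgG control records what sticks to an antibody and beads with no target, so a list called against one need not hold the same positions as a list called against the other.

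Several of the highest summits of the list carried a short recurring word, GAATGG or the overlapping GCGAATG. The stretches below run 40 bases to each side of the summit on the forward strand of dm6. They are the 5 highest summits of the whole list and the 5 highest input-only summits whose whole stretch lay on the arms 2L, 3L, 3R or X, met no annotated UTR and was not the tandem repeat shown further down. Higher input-only summits whose stretch reached into a UTR, such as those at Fntb and Polr2F, are therefore not printed. Capitals mark matches to GAATGG or GCGAATG on either strand.
Rh5, chr2L:12007634-12007714, score 2448, shared: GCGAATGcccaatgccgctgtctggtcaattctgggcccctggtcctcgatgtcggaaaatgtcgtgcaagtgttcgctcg
Spt20, chr3L:13502617-13502697, score 2366, shared: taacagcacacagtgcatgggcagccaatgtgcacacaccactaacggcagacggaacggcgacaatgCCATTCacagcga
CG31388, chr3R:11237711-11237791, score 2166, shared: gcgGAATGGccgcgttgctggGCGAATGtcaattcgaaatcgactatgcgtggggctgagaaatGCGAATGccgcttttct
Spp, chr2L:544658-544738, score 2069, shared: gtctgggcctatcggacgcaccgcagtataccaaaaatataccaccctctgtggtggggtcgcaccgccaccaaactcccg
vig, chr2L:15068094-15068174, score 2050, shared: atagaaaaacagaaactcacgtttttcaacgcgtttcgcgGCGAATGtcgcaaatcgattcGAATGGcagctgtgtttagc
CG44774, chrX:4936337-4936417, score 124, input-only: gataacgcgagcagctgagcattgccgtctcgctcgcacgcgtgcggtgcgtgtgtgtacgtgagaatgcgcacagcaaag
l(3)73Ah, chr3L:16588188-16588268, score 103, input-only: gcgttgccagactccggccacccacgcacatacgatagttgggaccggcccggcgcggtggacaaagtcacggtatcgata
CG11426, chr3L:22470442-22470522, score 94.1, input-only: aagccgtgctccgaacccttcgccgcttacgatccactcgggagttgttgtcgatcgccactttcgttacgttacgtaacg
CG8765, chr3L:19687413-19687493, score 82.4, input-only: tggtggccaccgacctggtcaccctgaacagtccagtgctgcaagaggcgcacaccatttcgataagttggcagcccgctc
CG31457, chr3R:23127994-23128074, score 80.4, input-only: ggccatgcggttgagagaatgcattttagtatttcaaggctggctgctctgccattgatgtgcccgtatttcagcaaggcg
The CG31388 and vig stretches hold more than one match, Rh5 and Spt20 hold one each, Spp holds none, and none of the 5 input-only stretches holds one. Within 40 bp of the summit, one of the words was found at 0 of the 15 highest input-only summits, printed or not, and at 9 of the 10 highest summits of the list. The words were chosen after their values at high summits were seen. The groups also differ in score, 80.4 to 300.9 against 1709 to 2448, so these counts do not compare input-only with shared summits. Shares within score bands are given further down.

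Scores of input-only summits were low. Their median score was 8.07, with a range of 1.301 to 300.9 and quartiles of 4.37 and 14.2, against a median of 33.5, a range of 1.301 to 2448 and quartiles of 14.2 and 83.0 for the shared summits. A score of 1.301 corresponds to a q-value of 0.05, which is where the list begins. Input-only summits made up 26.7% of the list (95% Wilson interval 25.9 to 27.4). They were 63.5% of the 1658 summits with a score under 5, 41.0% of the 4680 summits between 5 and 20, 10.3% of the 4626 summits between 20 and 100, and 0.399% of the 2007 summits at 100 or more, where only 8 were input-only. The Wilson intervals given here and below cover counting error alone, treat summits as independent of each other, and say nothing about differences between replicates. The 2 lists rest on the same ChIP libraries, so sharing between them is not a comparison of replicates.

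**Figure D1:**
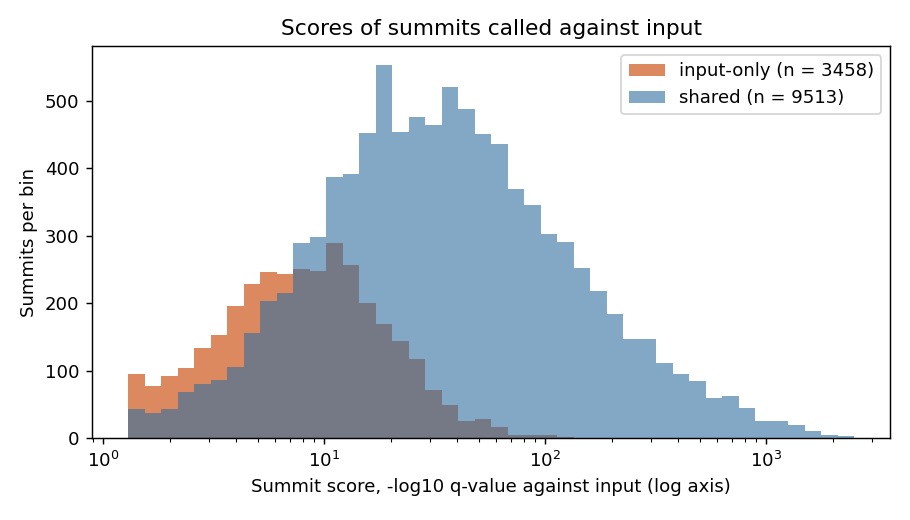
Number of summits (vertical axis) by score, the −log10 q-value against input (horizontal log axis), for the 3458 input-only summits (orange) and the 9513 shared summits (blue). The input-only summits centre on a score of 8.07 and the shared summits on 33.5, and the 2 distributions overlap from the lowest score up to 300.9.

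Shared summits lay at close positions in the 2 lists. Both lists rest on the same ChIP libraries and sharing was defined as within 100 bp, so this closeness was partly set in advance. The same base was the summit in both lists at 65.1% of shared summits, and the positions lay within 10 bp of each other at 97.8%. The score against input was the higher of the 2 scores at 93.5% of shared summits, with a median of 33.5 against input and 15.03 against IgG. Few summits stood near the 100 bp limit. The shared summits with the widest gaps lay 95, 93 and 88 bp from their IgG partner, near Obp44a, DnaJ-1 and Uba1, with scores of 1.45, 3.36 and 85.3. Just outside the limit, input-only summits near p130CAS and CG3402 each lay 107 bp from an IgG summit, with scores of 1.55 and 2.92. Within 250 bp of an IgG summit lay 34 input-only summits, and the median distance was 1344 bp (quartiles 741 and 4004 bp).

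Many input-only summits stood beside a shared one. A shared summit lay within 1000 bp of 34.8% of input-only summits (33.2 to 36.4), and another shared summit lay within that distance of 41.8% of shared summits (40.8 to 42.8). Of the 1203 input-only summits with such a neighbour, 81.7% had the lower score of the pair, with a median of 9.12 for the input-only summit and 27.9 for its shared neighbour. The sets differed in score over the whole list as well, with medians of 8.07 and 33.5. This order is therefore not shown to be particular to neighbours.

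The single highest input-only summit lay in a tandem repeat far from any gene start. It scored 300.9 at chr3R:2087516, ranked 592 of 12971, and lay in an intron of Myo81F, an unconventional myosin gene in the pericentromeric part of the arm. The nearest annotated protein-coding start, that of the Piezo-like channel gene Pzl, was 1176066 bp away, and the nearest summit of the IgG list 2109638 bp away. The sequence is shown because the repeat can be read in it. Capitals mark 6 exact copies of GACTAAC in the 300 bases chr3R:2087366-2087665.
Myo81F intron, chr3R:2087366-2087665: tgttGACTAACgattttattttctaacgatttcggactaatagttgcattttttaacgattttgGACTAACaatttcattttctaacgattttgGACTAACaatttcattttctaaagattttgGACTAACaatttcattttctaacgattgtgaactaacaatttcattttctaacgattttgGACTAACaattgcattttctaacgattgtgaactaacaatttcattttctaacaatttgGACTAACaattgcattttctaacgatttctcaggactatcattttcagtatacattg
Bases 30 positions apart were identical at 75.6% of positions, and bases 60 apart at 76.3%. All bases within 50 bp of the summit are in lower case in the RefSeq assembly, which marks masked repeats, and 25.7% of them are G or C. Across the list, self-identity of at least 60% at any shift of 5 to 100 bases was found at 1 of 3458 input-only summits, this one, and at 1 of 9513 shared summits, with medians of 33.6% and 33.3%. The reads had been filtered for unique alignment before calling, and the part of alignment within repeats in this score was not tested.

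The next highest input-only summits lay at gene starts. A summit with a score of 210 stood 102 bp downstream of an annotated transcript start of ND-39, a subunit gene of mitochondrial complex I. A summit of 124 lay 228 bp upstream of a start of CG44774, and one of 115.1 lay 8 bp inside pre-mod(mdg4)-C, part of the trans-spliced locus that encodes the insulator protein Mod(mdg4). Scores of 111 and 103 belonged to summits near CG7791 and l(3)73Ah, a RING finger gene, at 120 bp downstream and 247 bp upstream of a start. A further summit of 103 lay in the first intron of 14-3-3zeta, 310 bp from its start. On chromosome 4 a summit of 100.3 stood 37 bp downstream of an annotated transcript start of pan, the transcription factor at the end of Wnt signalling. The remaining summits among the 15 highest had scores of 80.4 to 97.5. They stood near Fntb, a farnesyltransferase subunit, CG11426, Polr2F, a subunit of RNA polymerases, the chromatin remodeller Iswi, the Hippo pathway coactivator yki, CG8765 and CG31457, between 17 and 112 bp from a start. Of these 15 summits, 13 were in a promoter window as defined here, 1000 bp upstream to 100 bp downstream of a protein-coding start. By comparison, all of the 10 highest summits of the list were in promoter windows, with scores of 1709 to 2448. These stood at Rh5, a rhodopsin, Spt20, a subunit of the SAGA coactivator, CG31388, Spp, the signal peptide peptidase, vig, Charon, Naa15-16, an N-terminal acetyltransferase subunit, the G protein gene Galphas, the glycosyltransferase gene Pgant6 and CG31793. Their distances from a start were 4 to 479 bp, and the IgG partner of each lay at the same base or 1 bp away.

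Far fewer input-only summits than shared summits were in promoters. Promoter windows held 30.2% of input-only summits (28.7 to 31.8) and 49.7% of shared summits (48.7 to 50.7), and 44.5% of the whole list, where 12.3% of assembled bases are promoter. Exons outside promoters held 27.9% of input-only and 22.3% of shared summits, for 21.7% of bases, and this order turned at low scores. Introns outside promoters held 32.2% of input-only summits (30.6 to 33.8) and 22.6% of shared summits (21.8 to 23.5), for 39.6% of bases. The space between genes held 9.63% and 5.39%, for 26.5% of bases. Both sets were therefore above the genome's share in promoters and below it in introns and between genes.

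Within score bands below 100, promoters and introns kept this order and exons did not. Among summits with a score under 5, 26.7% of input-only and 34.9% of shared summits were in promoters. Between 5 and 20 the shares were 30.1% and 39.9%, and between 20 and 100 they were 37.8% and 49.5%, with intervals that did not overlap in any of these 3 bands. At 100 or more, 7 of 8 input-only summits were in promoters (52.9 to 97.8), against 68.3% of 1999 shared summits, a difference that could not be told from counting error. Introns showed the opposite order, with 32.9% of input-only and 24.1% of shared summits between 5 and 20, and 31.7% and 26.0% between 20 and 100. Exons held 31.0% of input-only summits (28.2 to 33.8) and 37.7% of shared summits (33.9 to 41.6) at scores under 5. Between 5 and 20 the exon shares were 28.2% and 29.8%, and between 20 and 100 they were 20.8% and 19.04%, with overlapping intervals in both.

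**Figure D2:**
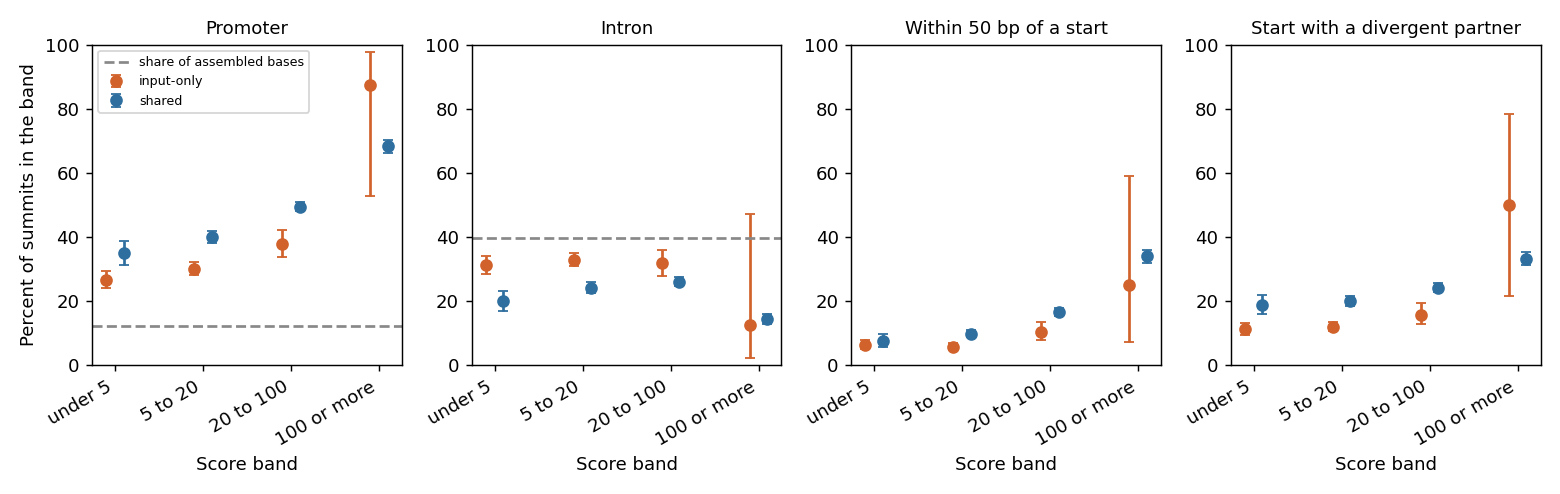
Percent of summits in each score band (vertical axis, 0 to 100) that lay in a promoter, in an intron, within 50 bp of a start, or near a start with a divergent partner, for input-only (orange) and shared (blue) summits. Bars are 95% Wilson intervals and dashed lines are the share of assembled bases; in the 3 bands below 100 the input-only points lie below the shared points for promoters and above them for introns.

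Within genes, smaller shares of input-only than of shared summits lay in the 5′ UTR. When each summit was placed by the annotation with no promoter class, 9.05% of input-only summits (8.14 to 10.1) and 20.3% of shared summits (19.5 to 21.1) fell in a 5′ UTR, which covers 3.06% of bases. Coding sequence held 26.7% of input-only and 25.6% of shared summits, for 17.1% of bases. The intervals overlapped over all scores but not in the bands under 5 and between 5 and 20. Under a score of 5, coding sequence held 32.8% of input-only and 45.8% of shared summits, and between 5 and 20 it held 25.9% and 34.4%. Between 20 and 100 it held 17.2% (14.1 to 20.9) and 22.0% (20.8 to 23.3), with intervals that just overlapped. First introns held 27.7% of input-only summits (26.2 to 29.2) and 22.6% of shared summits (21.8 to 23.5), for 18.8% of bases, and the other introns 12.1% and 8.74%, for 23.9% of bases. The 3′ UTR held 5.32% and 3.76%, for 4.94% of bases. Among the bands below 100, first intron intervals stayed apart under 5 (24.9% and 16.5%) and between 5 and 20 (28.7% and 22.0%). Between 20 and 100 they overlapped, at 29.8% (25.9 to 34.1) and 25.7% (24.4 to 27.1). For the other introns and the 3′ UTR the intervals overlapped in each of these bands. For the 5′ UTR they overlapped only under 5, at 6.17% and 9.75%.

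Around the starts, the shared summits formed a double peak that was lower among input-only summits. The bin from 50 bp upstream to the start held the most shared summits, 10.1% of them, whereas 3.76% of input-only summits lay in that bin and 3.79%, 131 against 130 summits, in the bin from 100 to 150 bp downstream. Within 50 bp of a start lay 6.51% of input-only summits (5.73 to 7.38) and 17.6% of shared summits (16.9 to 18.4). Part of this gap went with score. Under 5 the shares were 6.17% (4.87 to 7.79) and 7.44% (5.61 to 9.81), with overlapping intervals. They were 5.67% and 9.68% between 5 and 20, and 10.3% and 16.5% between 20 and 100. Over all scores, the median distance to the nearest start was 1217 bp for input-only and 423 bp for shared summits. More than 5000 bp from any start lay 17.4% and 9.41%. A nearest start within 1000 bp with a divergent partner, a start of opposite direction at most 1000 bp upstream of it, was found for 12.3% of input-only summits (11.3 to 13.5) and 24.5% of shared summits (23.6 to 25.4). Between scores of 20 and 100 these shares were 15.8% and 24.1%.

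**Figure D3:**
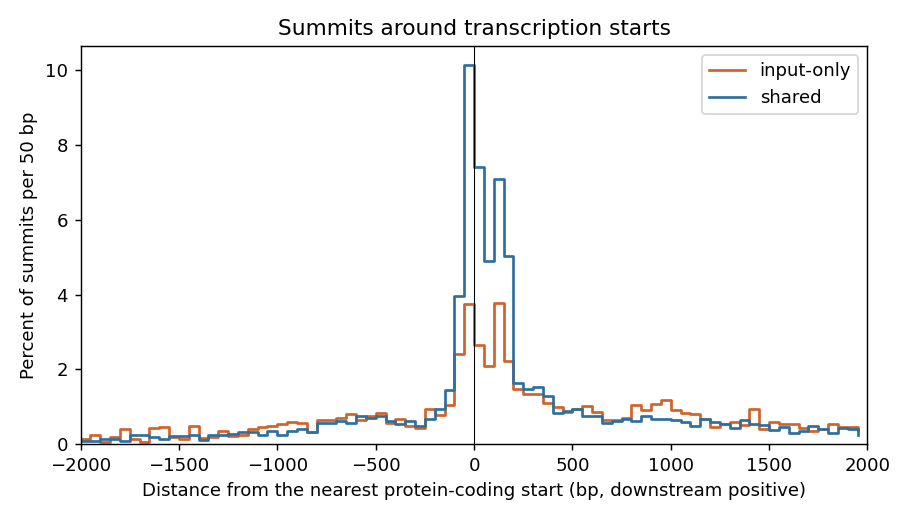
Percent of summits per 50 bp bin (vertical axis) by distance from the nearest protein-coding start in bp, downstream positive (horizontal axis), for input-only (orange) and shared (blue) summits. The shared line reaches 10.1% just upstream of the start, where the input-only line stays below 4%, and beyond 200 bp the lines run close together.

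Genes that held input-only summits were long. Protein-coding genes with an input-only summit between their ends had a median length of 6.52 kb (2014 genes), those with a shared summit 3.58 kb (4726 genes), and all 13945 protein-coding genes 2.17 kb. A longer gene has more room for a summit of either kind, and counts were not divided by length. The gene with the most input-only summits was bun, a TSC22-family transcription factor gene of 91.1 kb, with 11 input-only and 6 shared summits. Mob2, a kinase adaptor gene, had 10 input-only and 11 shared summits, and all 10 lay in first introns. Svil, the supervillin gene, had 10 and 18, ush, a cofactor of GATA factors, had 9 and 10, and crp, a basic helix-loop-helix factor gene, had 8 and 11. The input-only summits of these 5 genes had median scores of 7.42 to 18.9, and their highest reached 60.5.

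The word seen in the highest sequences was more frequent at higher scores. The motifs GAATGG and GCGAATG were chosen after their values were seen, so the shares are a description. Within 50 bp of the summit, GAATGG on either strand was found at 31.5% of the 292 summits with a score of 500 or more (26.4 to 37.0), against 3.77% of windows of the same length centred 350 bp to each side. Among 2064 words of 6 bases with a share over 0.5% in those outer windows, it had the second highest ratio of the 2 shares, and ATACCG the highest at 8.90% against 1.03%. GCGAATG was found at 22.6% of these summits (18.2 to 27.7), against 1.88% of outer windows. At least one of the 2 words was present at 9.68% of summits with a score under 100, 15.7% of those between 100 and 500 and 40.1% of those at 500 or more, with 5.82%, 5.42% and 5.48% in the outer windows. Of windows of the same length centred on all 19252 distinct protein-coding starts, 5.096% held GAATGG and 2.26% held GCGAATG.

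Over all scores, a smaller share of input-only summits than of shared summits held the words. At least one word was present at 8.76% of input-only summits (7.87 to 9.75) and 12.03% of shared summits (11.4 to 12.7), against 5.55% and 5.83% in the outer windows. Between scores of 20 and 100, GAATGG was found at 7.77% of input-only summits (5.69 to 10.5) and 7.90% of shared summits (7.12 to 8.76), and GCGAATG at 5.88% (4.10 to 8.37) and 4.19% (3.62 to 4.85). No input-only summit scored 500 or more. The 3 highest input-only summits with GAATGG, on the same arms and outside UTRs, are shown because they carry the word of the high list without an IgG partner. The capitals mark GAATGG or GCGAATG on either strand, and the stretches run 50 bases to each side.
Between genes near Reg-2, chr3L:627041-627141, score 61.3: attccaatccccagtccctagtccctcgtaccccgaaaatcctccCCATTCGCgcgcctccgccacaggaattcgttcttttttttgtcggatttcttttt
Between genes near GABA-B-R1, chr2L:15013804-15013904, score 52.3: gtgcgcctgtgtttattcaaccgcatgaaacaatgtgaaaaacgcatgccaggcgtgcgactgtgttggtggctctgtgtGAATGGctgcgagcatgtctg
Coding sequence near the start of CG9184, chr3L:1322046-1322146, score 51.1: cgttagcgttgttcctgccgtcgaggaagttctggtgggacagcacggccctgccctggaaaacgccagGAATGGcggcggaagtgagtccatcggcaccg

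**Figure D4:**
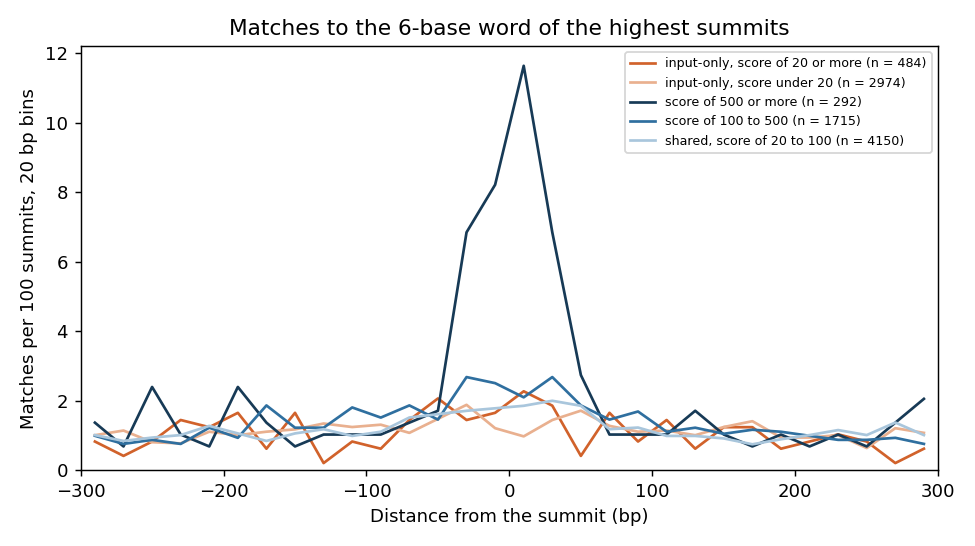
Matches to the 6-base word of the highest summits per 100 summits in 20 bp bins (vertical axis), by distance from the summit in bp (horizontal axis), for input-only summits with a score of 20 or more and under 20 (orange shades), and for all summits with a score of 500 or more and of 100 to 500 and shared summits of 20 to 100 (blue shades). The 292 summits with a score of 500 or more form a peak within about 50 bp of the summit that the other 4 lines do not approach.

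Input-only summits held runs of C more often than shared summits. The word CCCCCC, which was also chosen after its values were seen, was found on either strand at 5.67% of input-only summits (4.95 to 6.49) and 3.07% of shared summits (2.74 to 3.44), against 1.68% and 1.42% in their outer windows and 0.795% at protein-coding starts. Between scores of 5 and 20 it was found at 6.40% of input-only and 3.08% of shared summits, and between 20 and 100 at 6.72% and 3.45%. CGCGCG had the opposite order, with 1.97% of input-only (1.55 to 2.49) and 3.33% of shared summits (2.99 to 3.71), although between 20 and 100 the shares were 4.41% and 3.57% with overlapping intervals. The base composition of the sets was alike, with a median of 52.5% G and C within 50 bp of the summit in both, against 38.6% and 39.6% in the outer windows. The 3 highest input-only summits with CCCCCC, on the same arms and outside UTRs, are shown with the runs in capitals.
Between genes near CG4597, chr3L:5125369-5125469, score 62.9: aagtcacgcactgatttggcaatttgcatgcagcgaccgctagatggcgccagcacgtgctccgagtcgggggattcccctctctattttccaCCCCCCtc
Between genes near CG15186, chr3R:6476625-6476725, score 51.8: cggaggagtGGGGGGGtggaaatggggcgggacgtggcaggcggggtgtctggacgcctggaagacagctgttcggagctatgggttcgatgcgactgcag
First intron near Snoo, chr2L:7973617-7973717, score 38.7: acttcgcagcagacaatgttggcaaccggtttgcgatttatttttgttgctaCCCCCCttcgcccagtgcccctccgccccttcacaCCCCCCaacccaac

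Among known motifs of insulator and promoter proteins, searched on both strands by their letters, only some stood above the outer windows. The E-box CAGCTG was found at 8.42% of input-only and 10.2% of shared summits, against 4.27% and 4.61% in the outer windows and 8.77% at protein-coding starts. It was present at 14.3% of all summits with a score of 100 or more. GAGAG, bound by GAGA factor, was found at 15.9% and 15.04%, against 11.7% and 10.7% in the outer windows and 12.7% at protein-coding starts. The promoter element GGTCACACT, bound by M1BP, was found at 0.376% of input-only summits (0.220 to 0.642) and 1.72% of shared summits (1.48 to 2.01), against 0.188% and 0.505%. It was present at 3.74% of all summits with a score of 100 or more and at 3.64% of protein-coding starts. Within every score band the intervals of input-only and shared summits for GGTCACACT overlapped. Between 20 and 100 the shares were 0.420% (0.115 to 1.52) and 1.73% (1.38 to 2.18). CGATA, the core of BEAF-32 sites, was found at 12.1% and 13.2%, against 12.8% and 13.8% in the outer windows and 23.6% at protein-coding starts. TATCGATA, the DREF element, which contains CGATA, was found at 0.318% and 0.746%, against 4.48% at protein-coding starts. At the 292 summits with a score of 500 or more, TATCGATA was found at 3.08% (1.63 to 5.75) against 0.514% in the outer windows, CGATA at 17.5% against 12.3%, and GAGAG at 9.93% against 10.1%. TATAAA was found at 3.18% and 3.22%, against 15.5% and 14.2% in the outer windows, which were richer in A and T. The repeat CACACACA was found at 4.19% and 4.03%, against 2.53% and 2.29%. These are letter matches and not measured sites of those proteins. The shares were not adjusted for the lower G and C content of the outer windows.

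The share of input-only summits varied between chromosome arms. It was 44.4% on chromosome 4 (35.4 to 53.8), 30.1% on the X (28.3 to 32.0), 28.3% on 2L, 27.1% on 3L, 24.7% on 2R and 23.5% on 3R (22.0 to 25.03). In this order, the interval of each arm from the X to 3R overlapped that of the next, and that of 3L overlapped the X as well, while the interval of chromosome 4 overlapped none. Chromosome 4, the small arm that is largely heterochromatic, had 108 summits, or 80.1 per Mb, against 92.9 to 103 per Mb on the other arms. Its median score was 14.9, against 18.6 to 22.2 elsewhere. Between scores of 5 and 20, 29 of 46 summits on chromosome 4 were input-only (63.0%), against 37.4% to 43.3% on the other arms. Of the 3458 input-only summits, 20 were more than 100000 bp from any IgG summit. Beside the Myo81F repeat these included a pair near CG12567 with scores of 47.8 and 8.52 and a pair at MFS17 with 8.75 and 4.59. Others were a summit of 26.9 at 75 bp from a start of norpA, the phospholipase C of fly vision, and a pair at nuf with 19.0 and 5.69. A pair at mbl, a splicing regulator, had 10.4 and 3.65. Within 200 bp of a summit lay 6 of 290 tRNA genes (2.07%), 17 of 269 snoRNA genes (6.32%), 9 of 32 snRNA genes (28.1%) and 514 of 3261 ncRNA genes (15.8%), against 6422 of 13945 protein-coding genes (46.1%), which are not matched to them in length. Of these, input-only summits alone reached 2, 3, 2 and 124.

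A promoter summit against input was found for 5526 of 13945 protein-coding genes (39.6%), and 4860 of them (34.9% of all genes) had a shared summit there. The other 666 genes, 4.78% of all protein-coding genes and 12.1% of those with a promoter summit, were reached through input-only summits alone. Of these 666 genes, 37 had a summit of the IgG list in the promoter window all the same, and 629 had none. When a summit anywhere in the gene or within 1000 bp of it was counted, 7743 genes (55.5%) had one.

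In every list but that of the cuticle proteins, most genes with a promoter summit had a shared one. All counts are descriptions, to be read against the 39.6% and 4.78% of all protein-coding genes. Of 34 cell cycle genes, 28 had a promoter summit (82.4%), 26 of them through a shared summit, led by the mitotic kinase gene aurA at 884, Mcm6 of the replicative helicase at 556 and polo at 389. Input-only summits alone reached CycD, a G1 cyclin gene, with a score of 19.9, and Mcm7 with 12.8. Of 32 genes of the actin cytoskeleton and adhesion, 26 had one (81.3%), led by Arp3 at 1055, the septin gene pnut at 790 and the GTPase gene Cdc42 at 529. Input-only summits alone reached Moe, the moesin gene, with 35.6, and Rac2 with 2.50. Of 93 cytosolic ribosomal protein genes, 66 had one (71.0%). RpS20 had 1673, at a summit whose nearest start was that of its neighbour CG17271, RpS5a had 592 and RpS18 had 590. Input-only summits alone reached 10 ribosomal protein genes, or 15.2% of the 66, against 12.1% of all protein-coding genes with a promoter summit. Among them were RpLP0-like at 103, through the summit in 14-3-3zeta, RpS13 at 36.0 and RpS14b at 31.1.

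Insulator and architectural protein genes were themselves among the bound promoters. Of 28 such genes, 18 had a promoter summit (64.3%), led by Chro, which encodes Chromator, at 1691 and rank 11, M1BP at 944 and pzg, the gene of a Chromator partner, at 183. Input-only summits alone reached Clamp, which encodes a protein that binds GA repeats, with 73.1, and vtd, the cohesin subunit Rad21, with 5.89. The dwg gene had no summit within its limits or 1000 bp around it. Of 93 oxidative phosphorylation genes, 45 had a promoter summit (48.4%, 38.5 to 58.4), an interval that includes the share of all genes, with ATPsynbeta highest at 735. With a summit in the gene or within 1000 bp of it counted, 68 had one (73.1%, 63.3 to 81.1), against 55.5% of all genes. The 3 whose promoters were reached through input-only summits alone were ND-51 at 28.0, ND-B16.6 at 17.5 and ATPsynE at 17.5. Each of these summits was nearer to the start of another gene.

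Of 28 autophagy genes, 16 had a promoter summit (57.1%, with an interval of 39.1 to 73.5 that includes the share of all genes), 12 of them shared and 4 through input-only summits alone. This reading depended on the window. A summit in the gene or within 1000 bp of it was found for 25 of the 28 (89.3%, 72.8 to 96.3), against 55.5% of all genes. Atg1, the kinase gene that starts autophagy, had a single shared summit of 793, 17 bp inside its 5′ UTR at chr3L:12805099. Atg13, the partner of Atg1 in that complex, had a shared summit of 272 at 135 bp downstream of its start, just outside the promoter window. Atg3, a conjugating enzyme of the Atg8 system, had a shared summit of 80.7 at 456 bp upstream, 136 bp from the start of its neighbour Nufip. Atg17, the scaffold of the Atg1 complex, had 4 summits. Its shared summits of 79.0 and 42.4 lay 128 and 3327 bp downstream of its start, and its input-only summits of 12.2 and 18.9 lay 564 bp upstream and 764 bp downstream. The promoter window thus counted Atg17 as reached through an input-only summit alone, although a higher shared summit lay 28 bp beyond the edge of the window. Atg12, the ubiquitin-like modifier of the same system, had only input-only summits, of 12.7, 2.62 and 18.4, and the outer pair lay within 108 bp of the starts of CG5645 and ND-SGDH. Atg7, the E1-like enzyme, also had only input-only summits, of 25.1 in coding sequence 171 bp downstream of its start and of 11.4 nearer to the start of CG5335.

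Among genes of restricted use, chemoreceptor and cuticle protein genes had the lowest shares of the 12 lists. Of 179 chemoreceptor genes, 13 had a promoter summit (7.26%), none through input-only summits alone, and of 70 cuticle protein genes 5 had one (7.14%), with 3 through input-only summits alone at scores of 16.2, 3.24 and 1.85. Of 25 heat shock genes, 8 had one (32.0%), all shared, led by Hsp110 at 405, Hsf at 196 and the constitutive chaperone gene Hsc70-4 at 185. No summit lay in or within 1000 bp of any of the Hsp70 genes, the classic heat-inducible genes. Several of the Hsp70 genes are near-identical copies, and reads that align to several places had been removed. The part of this removal in the missing summits was not tested. Hsp22, Hsp23, Hsp26, Hsp27 and Hsp68 also had no summit in the gene or within 1000 bp, whereas Hsp67Bc had one outside its promoter window. Of 8 Hox genes, 3 had one, namely Abd-B at 47.4, Antp at 29.6 and Scr at 4.24, the last through an input-only summit. Of 25 genes in the blood cell list, 14 had one (56%), all shared, led by Lis-1 at 222, Tig at 78.4 and Ppn at 65.6. The interval of 37.1 to 73.3 includes the share of all genes. Membership of this list does not mean that a gene is used only in blood cells. With a summit in the gene or within 1000 bp of it counted, again 14 had one, against 55.5% of all genes. Genes of the blood cell list without such a summit included Hml, NimC1 and eater, markers of plasmatocytes. They also included lz, PPO1 and PPO2, markers of crystal cells. Of 20 ecdysone response genes, 11 had one (55.0%), led by Hr96 at 878. Input-only summits alone reached Eip74EF at 12.6, Eip93F at 9.52 and ftz-f1 at 4.03, transcription factors of the hormone response.

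**Figure D5:**
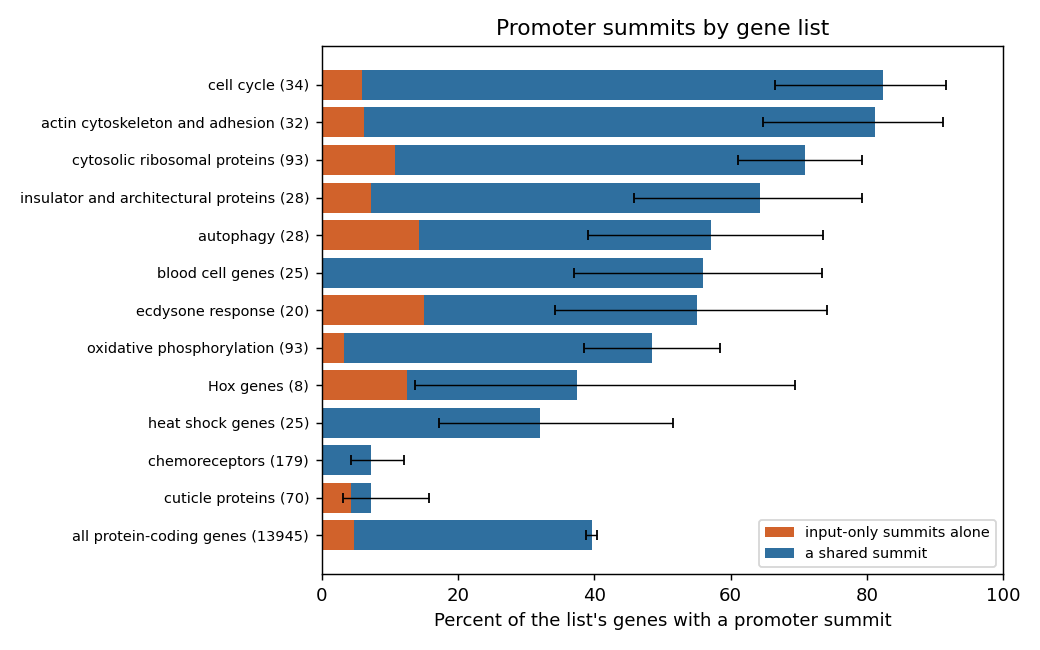
Percent of the genes in each list (size in brackets) with a promoter summit called against input (horizontal axis), split into genes reached through input-only summits alone (orange) and genes with a shared summit (blue), with 95% Wilson intervals of the total. The cell cycle list reaches 82.4% and the cuticle protein list 7.14%, beside 39.6% of all protein-coding genes in the lowest row.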

How the data were processed

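Chromatin of S2R+ cells was fragmented with an enzyme kit, and the libraries were sequenced as paired ends. The authors trimmed reads with Trim Galore 0.6.4, aligned them to dm6 with Bowtie2 2.3.5.1, kept unique alignments with SAMtools 1.6 and called peaks with MACS2 2.2.6 (HOMER 4.11 is also named). Whether replicates were pooled before calling is not given in the sources used here. The deposited values are the −log10 q-value at each summit, and there are 2 lists, one per control, so no test between samples could be made.

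Summits were placed on the 6 main chromosome arms with Ensembl release 115 gene models and the RefSeq dm6 genome, using Python 3.11.15, NumPy 2.4.6 and pandas 2.3.3. Transposable elements in the annotation were not used. Genes were named by rule: the genes nearest the 10 highest summits and the 15 highest input-only summits, the 5 genes with most input-only summits, the Atg genes described and dwg, and up to 3 members per list and kind of summit. Genes beside the printed sequences, at the 100 bp limit, far from IgG summits, or without any summit were added after their values were seen. The members and the 12 gene lists were chosen with earlier results of these data known. Several list symbols did not match the annotation and were left out. Sequence of arm 2R is not shown. The scripts were tested on simulated positions.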

Additional observations from a re-analysis of the deposited data

How the results depend on the processing

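No paired analysis was possible because each summit has a single score rather than one for every library, and no library could be left out. The share of input-only summits, 26.7%, was 24.1% with a sharing distance of 500 bp, and 21.3%, 15.2% and 7.30% with scores of at least 5, 10 and 20. The promoter share of the list, 44.5%, was 46.7%, 49.8% and 54.4% at those scores, 46.3% and 59.3% with promoters of 500 and 1000 bp to each side, and 47.1% with starts of all annotated genes. The promoter share of input-only summits, 30.2%, was 31.8%, 35.0% and 38.6% at those scores, 45.03% with promoters of 1000 bp to each side, and 33.2% with starts of all annotated genes. Genes reached through input-only summits alone, 666, were 347 and 151 at scores of at least 10 and 20. The share of input-only summits within 50 bp of a start, 6.51%, was 10.5% at scores of at least 20. The other 23 values moved within their interval or within 1.5 times. Among these, genes with a promoter summit, 5526, were 3980 at scores of at least 20 and 6809 with promoters of 1000 bp to each side. The 39.6% of all protein-coding genes, against which the gene lists were read, therefore depends on these settings. Leaving out the summit in the Myo81F repeat, which was chosen after seeing the data, gave 6.51% within 50 bp of a start. Depth is unknown, so a position without a summit is not shown to be unbound.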
